A study of Mus musculus with 15 samples.

Results

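The nuclear-encoded genes of the mitochondrial respiratory chain and ATP synthase were taken as every row of the count table whose symbol began with Nduf, Uqcr, Cox4 to Cox8 or Atp5, or was Sdha, Sdhb, Sdhc or Sdhd, and whose mean over all libraries was at least 1 CPM (counts per 1e+06 of the library's total). Of 97 symbols that matched, 82 passed this level and 15 did not, out of 55571 gene rows in the table. The 82 were 44 genes of complex I, 4 of complex II, 7 of complex III, 11 of complex IV and 16 of complex V. Another 9 rows with "-ps" in the symbol, a mark of pseudogenes, were left out, and together they held 0.442% as many counts as the 82 genes. Nearly all of these counts were of Ndufb1-ps (28.3 of 28.8 CPM), which the annotation does not list as a pseudogene. The choice used levels over all groups and no difference between them.

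The respiratory chain passes electrons from NADH and succinate to oxygen through complexes I to IV of the inner mitochondrial membrane, and pumps protons as it does so. Complex V, the ATP synthase, lets the protons flow back and makes ATP. Most subunits are encoded in the nucleus, made in the cytosol and imported, and a few are encoded and made in the mitochondrion itself. Nuclear factors such as NRF1, the ETS-type factor GABP, YY1 and the oestrogen-related receptor ERR are known to bind near many of these genes.

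The study measured RNA in E0771, a mouse mammary carcinoma line, cultured without T cells. The 5 groups of 3 libraries each expressed an empty vector (Vector), wild-type Malt1 (Malt1_WT), a PD mutant of Malt1 (Malt1_PD), or Malt1 with 1 of 2 single-residue changes (Malt1_V87R and Malt1_L88D). Malt1 encodes a paracaspase, which acts both as a scaffold in signalling to NF-kB and as a protease. The labels do not say whether a construct is carried by a pool or a clone of cells, or whether the 3 libraries of a group came from separate cultures. The p-values therefore cover only variation among these libraries, and that variation could be technical.

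Library totals ran from 15471746 to 21458457 counts. Malt1 itself was at 28.2 ± 1.92 CPM (SD, n = 3) in Vector and between 193 and 281 CPM in the libraries of the 4 constructs. Among the constructs it was lowest in Malt1_WT, at 202 ± 7.97 CPM, without overlap with the others. It was at 250 ± 8.87 CPM in Malt1_PD, 252 ± 6.74 in Malt1_L88D and 280 ± 1.35 in Malt1_V87R. Of 11 markers of the line, 6 had a mean below 1 CPM in Vector, and 1 had no count in any library. Vim and Krt8 were high (3802 ± 127 and 117 ± 8.62 CPM in Vector) and Epcam was low (9.75 ± 1.16 CPM). The 11 markers summed to 3826 to 4096 CPM in Vector, most of it Vim, and to 2525 to 2630 CPM in Malt1_WT. Their sum was 2963 to 3176 CPM in Malt1_PD, 3756 to 3868 in Malt1_V87R and 3796 to 3811 in Malt1_L88D. Of 20 markers of macrophages and dendritic cells, 14 had a mean below 1 CPM in Vector and 10 in Malt1_WT. Adgre1, Csf1r, Mrc1 and Flt3 passed 1 CPM between these groups (Mrc1 from 0.697 to 2.60 CPM and Flt3 from 0.261 to 1.94 CPM). The summed level of the 20 was 51.8 to 54.3 CPM in Vector against 86.3 to 92.1 CPM in Malt1_WT. For 12 T and NK cell markers the sum was at most 4.43 CPM in any library, and for 10 muscle and heart markers at most 4.70 CPM. For 10 fibroblast markers it was higher, at 311 to 330 CPM in Vector, 305 to 310 CPM in Malt1_WT and 342 to 358 CPM in Malt1_PD. These sums moved with the groups compared here, and their part in the results was not tested. In bulk RNA, fewer cells of a type and less RNA per cell cannot be told apart.

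Replicate 2 of Malt1_PD and of Vector stood low within their groups for the 82 genes. The median log2 ratio of the genes to their Vector mean was -0.24 in Malt1_PD replicate 2, against -0.03 and -0.10 in replicates 1 and 3. It was -0.07 in Vector replicate 2, against 0.06 and 0.01 in replicates 1 and 3. Replicate 2 was also the lowest of Malt1_WT, at -0.34 against -0.24 and -0.31. In Malt1_V87R it was lowest by little (-0.101 against -0.096 and -0.022), and in Malt1_L88D it was not the lowest. Results that rest on replicate 2 of Vector or of Malt1_PD are given with and without it.

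To show the DNA next to these genes, windows of 250 bases before the annotated start and 50 after it were read from the RefSeq table of promoters on GRCm38.p6, which held 68 of the 82 genes. A motif was searched as 1 string of letters for each of 4 factors, on both strands: GCGCANGCG for NRF1, CCGGAAGT for GABP and other ETS factors, AANATGGCG for YY1 and TCAAGGTCA for ERR, where N is any base. The 4 windows below are not a random sample. They were chosen after matches had been seen, and earlier choices were revised, so that 3 of them hold a match: for each motif, the gene with the lowest Malt1_WT fold change among those with a match in the 250 bases and at most 30 of these bases in an annotated exon. No gene met this for YY1. The fourth is that of Ndufaf1, the complex I assembly factor that rose in Malt1_WT. Over all 68 genes, 18 held a match in their 250 bases, which is the rate to read these windows against. The bases before the start are printed 5′ to 3′ on the gene's strand, with the match in capitals.

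Atp5l: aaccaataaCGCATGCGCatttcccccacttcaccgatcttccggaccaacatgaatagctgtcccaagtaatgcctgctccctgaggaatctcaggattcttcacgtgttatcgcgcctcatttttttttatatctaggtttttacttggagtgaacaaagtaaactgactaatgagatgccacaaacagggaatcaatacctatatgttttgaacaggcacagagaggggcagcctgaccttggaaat

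Uqcr11: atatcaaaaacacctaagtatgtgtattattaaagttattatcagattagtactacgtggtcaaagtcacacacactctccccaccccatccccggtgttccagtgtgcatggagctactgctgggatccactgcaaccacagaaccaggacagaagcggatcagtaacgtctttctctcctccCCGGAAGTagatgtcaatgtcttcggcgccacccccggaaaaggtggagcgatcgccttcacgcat

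Atp5g3: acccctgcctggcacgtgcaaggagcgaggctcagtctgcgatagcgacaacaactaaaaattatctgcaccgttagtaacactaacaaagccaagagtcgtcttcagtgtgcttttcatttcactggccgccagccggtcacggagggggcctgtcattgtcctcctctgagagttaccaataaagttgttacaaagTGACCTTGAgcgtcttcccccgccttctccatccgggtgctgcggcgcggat

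Ndufaf1: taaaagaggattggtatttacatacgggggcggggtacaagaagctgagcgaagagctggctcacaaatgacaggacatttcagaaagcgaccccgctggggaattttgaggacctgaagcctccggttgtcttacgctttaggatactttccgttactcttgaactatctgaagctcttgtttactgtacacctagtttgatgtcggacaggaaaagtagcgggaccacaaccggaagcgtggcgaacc

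All 4 genes lie on the minus strand. The windows are chr9:44920743-44920992 for Atp5l (subunit g of complex V), chr10:80406822-80407071 for Uqcr11 (a small subunit of complex III), chr2:73911327-73911576 for Atp5g3 (a c-ring gene of complex V) and chr2:119662835-119663084 for Ndufaf1. The NRF1 letters in Atp5l stood on the opposite strand with their first base at position -241 from the start, the ETS letters in Uqcr11 at -66 on the gene's strand, and the ERR letters in Atp5g3 at -52 on the opposite strand. In the whole windows of 300 bases, NRF1 letters were present in 20 of 68 genes (29.4%), in 13.4% of the windows of 10076 genes tested for expression and in 6.47% of all 27025 windows. YY1 letters were present in 13.2% of the 68, against 5.37% and 2.51%, and ERR letters in 2 of the 68 (2.94%), against 0.258% and 0.407%. ETS letters were present in 5.88% of the 68, below the 8.62% of the genes tested and above the 4% of all windows. NRF1 letters were in 17 of the 57 genes that were lower in Malt1_WT (29.8%) and in 3 of the other 11 (27.3%). A match describes letters in a window and not a bound site, and a window without one says nothing of the factor.

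Wild-type Malt1 against Vector asks how respiratory chain RNA differs when Malt1 is expressed. In Malt1_WT, 67 of the 82 genes fell, 1 rose (Ndufaf1) and 14 did not pass the test, which was edgeR's quasi-likelihood test adjusted over 14571 genes with a threshold of 0.05. Of all genes tested, 27.7% were called lower and 27.2% higher. The median log2 fold change of the 82 was -0.31, and that of all genes tested -0.01. The fall covered every complex and was modest in size: 37 of the genes called lower lay below Vector by more than 1.25-fold. The count of genes called lower was 53 to 66 when any 1 library of either group was left out, and 69 without replicate 2 of Vector and of Malt1_PD. Shares of all genes with libraries left out are not given.

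The summed level of the 82 genes was 7345, 6730 and 7070 CPM in the Vector libraries and 6049, 5774 and 5827 CPM in the Malt1_WT libraries. All Malt1_WT libraries lay below all Vector libraries, and their mean of 5883 ± 146 CPM (SD, n = 3) was 83.5% of the Vector mean of 7049 ± 308. In Malt1_PD the sum was 6966, 6096 and 6689 CPM, so that replicate 2 lay close to Malt1_WT and replicate 1 within the Vector range. The means were 6584 ± 445 CPM in Malt1_PD, 6681 ± 177 in Malt1_V87R and 6395 ± 67.8 in Malt1_L88D. As shares of all counts, the 82 genes made up 0.714% in Vector and 0.582% in Malt1_WT. Atp5b, the catalytic beta subunit of ATP synthase, was the most abundant member, and without it the Malt1_WT sum was 82.2% of Vector.

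**Figure D1:**
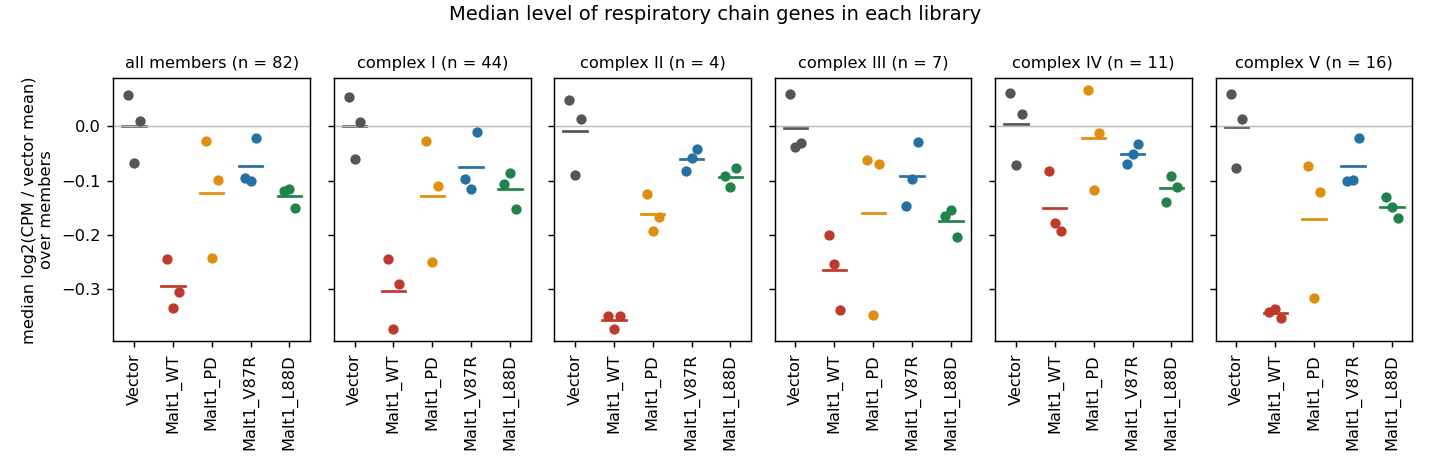
Median over the genes of log2(CPM / Vector mean), for all 82 genes and for each complex; points are libraries (3 per group) and bars their mean. Malt1_WT lies lowest for all genes (-0.24 to -0.34), and Malt1_PD replicate 2 (-0.24) is apart from the other 2 Malt1_PD libraries.

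Complex I, the NADH dehydrogenase that feeds electrons into the chain, had 34 of 44 genes lower in Malt1_WT, with a median log2 fold change of -0.31. All 6 core subunits measured, those that bear the flavin or the iron-sulfur clusters or line the quinone site, fell, with a median of -0.40. Ndufs7, which holds the last iron-sulfur cluster before quinone, was at 36.4, 33.7 and 37.9 CPM in Vector and 23.8, 25 and 23.7 CPM in Malt1_WT, with no overlap. Its log2 fold change was -0.58 ± 0.0838 (SE, edgeR adjusted p = 1.17e-06). Ndufv2, a core subunit of the NADH-binding module, went from 119, 109 and 115 CPM to 84.4, 82.1 and 86.6 CPM, and had the smallest adjusted p of the complex (-0.44 ± 0.0466, edgeR adjusted p = 3.92e-09). The core subunits Ndufv1, Ndufs1 and Ndufs8 changed by -0.36, -0.26 and -0.51 on the log2 scale, and all 3 passed the test.

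Accessory subunits surround the core of complex I and serve its assembly and stability. Of 30 measured, 23 fell in Malt1_WT and none rose. Ndufa5, of the matrix arm, was at 37.9, 33.4 and 33.9 CPM in Vector and at 23.4, 19.8 and 23.3 CPM in Malt1_WT (log2 fold change -0.67 ± 0.081, edgeR adjusted p = 4.73e-08). Ndufb10, of the membrane arm, was at 62.0, 56.0 and 53.6 CPM and at 38.6, 35.2 and 34.1 CPM (-0.67 ± 0.0959, edgeR adjusted p = 9.16e-06). In both genes every Malt1_WT library lay below every library of Vector. Ndufa4, which is named as a complex I gene and is now placed with complex IV, fell by 0.57 on the log2 scale. Ndufa8 went the other way in size, at 85.4, 83.3 and 82.1 CPM in Vector and 89.2, 84.2 and 86.8 CPM in Malt1_WT, where the ranges overlapped and the test was not passed (edgeR adjusted p = 0.475).

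Assembly factors bring the parts of complex I together and are not part of the finished enzyme. Of 8 with the Ndufaf name, 5 fell and 1 rose. The riser was Ndufaf1, at 19.5, 17.4 and 16.9 CPM in Vector and 22.2, 21.4 and 22.4 CPM in Malt1_WT. Its lowest Malt1_WT library lay above its highest Vector library, with a log2 fold change of 0.29 ± 0.0769 (edgeR adjusted p = 0.00198). In the other 3 constructs Ndufaf1 stayed between 15.4 and 18.6 CPM and was lower than in Malt1_WT in each comparison (log2 -0.37, -0.27 and -0.29 for Malt1_PD, Malt1_V87R and Malt1_L88D). Ndufaf2 fell by 0.37 on the log2 scale, though 65.7% of its exon bases lie under a gene on the opposite strand. The strand setting of the counting is not given in the sources used here, so reads of the pair may not have been kept apart.

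Complex II, succinate dehydrogenase, links the citrate cycle to the chain, and all 4 of its genes fell in Malt1_WT. Sdha, the flavoprotein that oxidises succinate, was at 199, 185 and 195 CPM in Vector and 153, 148 and 155 CPM in Malt1_WT (log2 fold change -0.34 ± 0.0398, edgeR adjusted p = 2.02e-08). Sdhd, a membrane anchor, was at 98.2, 96.0 and 96.9 CPM and at 75.2, 75.4 and 72.2 CPM (-0.39 ± 0.0448, edgeR adjusted p = 2.26e-08). The groups did not overlap in either gene. Sdhb, the iron-sulfur subunit, and Sdhc, the other anchor, changed by -0.35 and -0.40.

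In complex III, which passes electrons from quinol to cytochrome c, 6 of 7 genes fell, and the median log2 fold change was -0.27. Uqcrh, the hinge protein beside cytochrome c1, had the largest fall of all 82 genes. It was at 90.4, 74.8 and 76.6 CPM in Vector and at 46.9, 50.4 and 45.4 CPM in Malt1_WT, with a log2 fold change of -0.76 ± 0.0786 (edgeR adjusted p = 4.46e-08). Uqcr11, whose promoter window is printed above, fell by 0.56 on the log2 scale. The catalytic Rieske protein Uqcrfs1 and the core protein Uqcrc2 fell by 0.16 and 0.17. Uqcrq was the exception, at 103, 96.4 and 104 CPM in Vector and 117, 107 and 109 CPM in Malt1_WT, which did not overlap but did not pass the test (edgeR adjusted p = 0.075).

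Complex IV, cytochrome c oxidase, reduces oxygen, and 7 of its 11 genes fell in Malt1_WT, with the median log2 fold change nearest 0 of the 5 complexes (-0.15). Cox6b1, a subunit on the intermembrane side, was at 135, 122 and 127 CPM in Vector and 101, 95.1 and 97.8 CPM in Malt1_WT, with no overlap (log2 fold change -0.39 ± 0.0614, edgeR adjusted p = 9.29e-06). Cox4i1, the common form of the largest nuclear-encoded subunit, was at 273, 258 and 272 CPM and at 267, 249 and 249 CPM, with overlapping ranges (edgeR adjusted p = 0.195). Cox7a2l, a factor of supercomplex assembly, had a log2 fold change of -0.01 ± 0.0441, and its sign depended on the scaling (0.0021 with RLE size factors). Cox7a2 fell by 0.31. Cox6a1 and Cox8a fell by 0.16 and 0.15, calls that were lost with RLE scaling (edgeR adjusted p = 0.0532 and 0.0663) and with DESeq2 (adjusted p = 0.0647 and 0.0917). Leaving out Vector replicate 1 or 3 or Malt1_WT replicate 2 or 3 also ended both calls, and Malt1_WT replicate 1 that of Cox6a1. The forms known from muscle or from low oxygen, Cox6a2, Cox7a1 and Cox4i2, stayed under 1 CPM over all libraries (0.221, 0.731 and 0.169 CPM).

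All 16 genes of complex V fell in Malt1_WT, with a median log2 fold change of -0.37. The 3 genes that encode the same mature c subunit of the rotating ring all fell: Atp5g1 by 0.70, Atp5g2 by 0.39 and Atp5g3 by 0.48 on the log2 scale. Atp5g1 was at 64.2, 60.6 and 66.7 CPM in Vector and 43.7, 36.6 and 37.7 CPM in Malt1_WT (SE 0.0757, edgeR adjusted p = 2.1e-08). Atp5g3 was at 199, 184 and 193 CPM and at 142, 135 and 137 CPM (SE 0.0492), and its edgeR adjusted p of 1.88e-09 was the smallest among complex V genes. In both genes the highest Malt1_WT library was well below the lowest Vector library. The median was -0.29 for the 4 genes of the F1 head, which makes ATP, and -0.27 for the 4 of the peripheral stalk, which holds the head in place. Within the head, Atp5c1, the central gamma subunit, fell by 0.41, and Atp5b by 0.18.

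**Figure D2:**
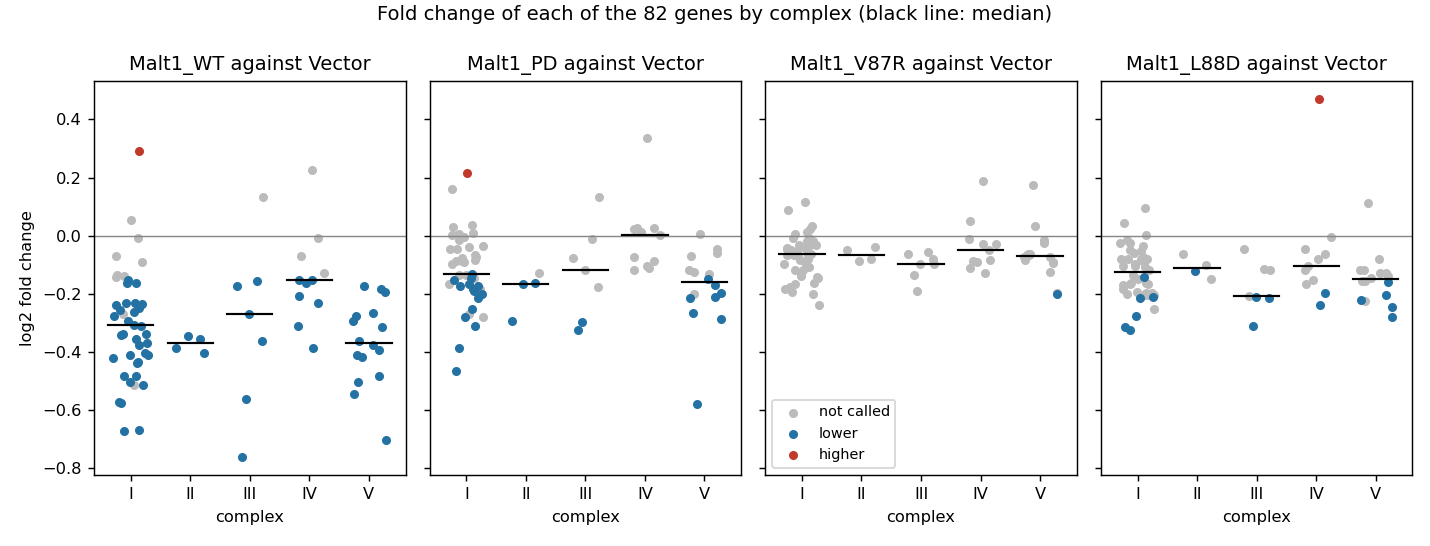
Log2 fold change of each of the 82 genes in each construct against Vector, by complex; coloured points passed the edgeR test and black lines are medians. In Malt1_WT the medians of complexes I to V were -0.31, -0.37, -0.27, -0.15 and -0.37, and in Malt1_V87R 1 gene passed the test.

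The other 3 constructs were compared with the same Vector libraries, so these comparisons share their controls. In Malt1_PD, 28 of the 82 genes fell and 1 rose, where 22% of all genes tested were called lower and 22.8% higher, and the median log2 fold change was -0.12. With all libraries, the share of members called lower was above that of all genes. The 28 were 15 genes of complex I, 3 of complex II, 2 of complex III, 8 of complex V and none of complex IV. The count rested in part on single libraries. It was 14 without Malt1_PD replicate 2, 17 without Vector replicate 1, and 20 without replicate 2 of both groups. The shares of all genes with these libraries left out are not given, so these counts do not show whether the excess held.

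Ndufs7 was at 29.6, 25.2 and 23.4 CPM in Malt1_PD, all below Vector, with a log2 fold change of -0.47 ± 0.0817 (edgeR adjusted p = 2.58e-05). Atp5s, a factor of ATP synthase coupling, had the largest fall, at 10.5, 10.9 and 10.6 CPM in Vector and 6.48, 7.54 and 7.39 CPM in Malt1_PD (-0.58 ± 0.11, edgeR adjusted p = 7.26e-05). Malt1_WT libraries were at 8.42, 6.97 and 8.61 CPM for Atp5s, and neither gene passed the test between Malt1_PD and Malt1_WT (edgeR adjusted p = 0.404 for Ndufs7 and 0.354 for Atp5s). Uqcrh was at 67.3, 59.8 and 66.3 CPM in Malt1_PD, between Vector and Malt1_WT without overlap of either, and fell by 0.32 against Vector. Ndufb10 and Ndufa5 fell by 0.38 and 0.31. Ndufa8 rose, at 104, 87.6 and 99.6 CPM in Malt1_PD (0.21 ± 0.0578, edgeR adjusted p = 0.00319).

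In Malt1_V87R, 1 of the 82 genes fell and none rose, where 4.7% of all genes tested were called lower and 7.01% higher. The gene was Atp5d, the delta subunit of the ATP synthase head, at 154, 144 and 171 CPM in Vector and 135, 134 and 140 CPM in Malt1_V87R (-0.20 ± 0.0604, edgeR adjusted p = 0.0328). The groups did not overlap, but the call was lost on leaving out replicate 1 or 3 of Vector or replicate 1 or 2 of Malt1_V87R. The direction was still mostly down, with 72 of 82 fold changes below 0 against 50.6% of all genes, and the median was -0.07. The count was 7 without Vector replicate 2 and 3 without Malt1_V87R replicate 3. As the shares of all genes under these settings are not given, these counts cannot be read against the 4.7%.

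In Malt1_L88D, 17 of the 82 genes fell and 1 rose, where 8.43% of all genes tested were called lower and 8.96% higher, with a median log2 fold change of -0.13. The 17 were 6 genes of complex I, 1 of complex II, 3 of complex III, 2 of complex IV and 5 of complex V. Ndufb10 was at 47.3, 47.5 and 42.3 CPM, all below Vector (-0.32 ± 0.0925, edgeR adjusted p = 0.0217). Ndufa4, Uqcr11, Atp5g1 and Ndufb4 fell by 0.31, 0.31, 0.28 and 0.28. Without Vector replicate 1 the calls of Ndufb10, Uqcr11 and Ndufb4 were lost, without Vector replicate 3 that of Atp5g1, and without Malt1_L88D replicate 3 that of Ndufb10. Cox7b2, a scarce relative of subunit VIIb best known from testis, rose from 4.32, 3.26 and 4.07 CPM to 5.81, 5 and 5.56 CPM (0.47 ± 0.161, edgeR adjusted p = 0.0425), a call that DESeq2 did not make (adjusted p = 0.0503) and that was lost without any 1 library other than Vector replicate 1. The count of falls was 4 without Vector replicate 1, 10 without Vector replicate 3, 8 without Malt1_L88D replicate 3 and 30 without Vector replicate 2. Here too the shares of all genes with a library left out are not given.

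**Figure D3:**
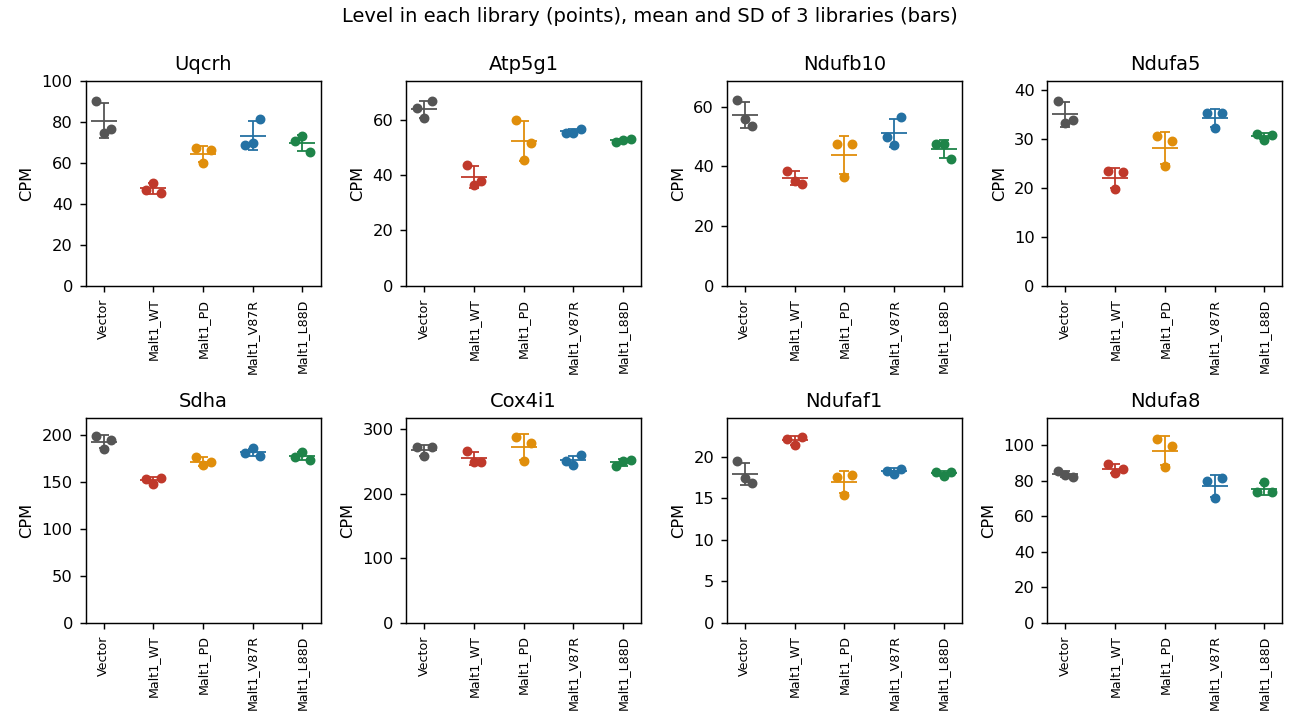
CPM in every library (points) with mean and SD of 3 libraries for 8 genes chosen after their values were seen. Uqcrh, Atp5g1, Ndufb10, Ndufa5 and Sdha are lowest in Malt1_WT, Cox4i1 overlaps between Vector and Malt1_WT, Ndufaf1 is highest in Malt1_WT and Ndufa8 is highest in Malt1_PD.

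The comparisons of the mutants with wild-type Malt1 ask whether the changes in the protein alter these levels. They share the Malt1_WT libraries, so each gives its own values. Malt1 RNA itself was lower in every Malt1_WT library than in any library of the mutants. A change in the protein and a different level of Malt1 RNA cannot be told apart in these comparisons. In Malt1_PD, 47 of the 82 genes were higher than in Malt1_WT and 1 was lower, where 12.6% of all genes tested were called higher and 10.7% lower. The median log2 difference was 0.18. The count of higher genes was 57 without Malt1_PD replicate 2, and 63 without replicate 2 of Malt1_PD and of Vector. It was 17 or 22 without Malt1_PD replicate 1 or 3, and 18 or 23 without Malt1_WT replicate 2 or 3. The shares of all genes with these libraries left out are not given. With upper-quartile scaling the count of higher genes was 28, and the share of calls over all genes that were higher moved from 54.0% to 43.6%.

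By complex, the genes higher in Malt1_PD than in Malt1_WT were 24 of complex I, 3 of complex II, 3 of complex III, 3 of complex IV and 14 of complex V. Uqcrh had the largest difference (0.44 ± 0.08, edgeR adjusted p = 0.000387), and Ndufa4, Atp5g1, Ndufa5 and Atp5j2, the last a small membrane subunit of complex V, followed with 0.42, 0.41, 0.36 and 0.33. Atp5j2 was at 67.5, 66.2 and 65.0 CPM in Malt1_WT and 88.7, 76.9 and 84.5 CPM in Malt1_PD, with no overlap. Ndufs7 differed by 0.11 and did not pass the test (edgeR adjusted p = 0.404).

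In Malt1_V87R, 54 of the 82 genes were higher than in Malt1_WT and 3 were lower, where 24.9% of all genes tested were called higher and 23.4% lower, with a median log2 difference of 0.22. Complex V had 15 of 16 genes higher, complex II 4 of 4, complex I 27 of 44, complex III 4 of 7 and complex IV 4 of 11. Ndufa5, at 35.4, 32.3 and 35.5 CPM in Malt1_V87R, overlapped Vector, with replicate 2 below the lowest Vector library, and lay above all Malt1_WT libraries (0.64 ± 0.0808, edgeR adjusted p = 1.44e-07). Uqcrh and Atp5s differed by 0.62 and 0.59. The genes that were lower were Ndufaf1, Uqcrq and Ndufa8, by -0.27, -0.23 and -0.17, and the last call was lost without Malt1_V87R replicate 2.

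In Malt1_L88D, 38 of the 82 genes were higher than in Malt1_WT and 3 were lower, where 22.8% of all genes tested were called higher and 22.3% lower, with a median log2 difference of 0.18. Complex V had 12 of 16 genes higher, complex II 4 of 4, complex I 18 of 44, complex III 3 of 7 and complex IV 1 of 11. Uqcrh, Atp5s and Ndufa5 differed by 0.55, 0.53 and 0.47. The lower genes were again Ndufaf1, Uqcrq and Ndufa8, with -0.29, -0.25 and -0.20.

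Between Malt1_V87R and Malt1_L88D, none of the 82 genes and 0% of all genes tested passed edgeR's test in either direction. At an unadjusted p under 0.05 edgeR counted 852 genes and DESeq2 591, and DESeq2 called none after adjustment. The fold changes of the 82 ran from -0.28 to 0.18 on the log2 scale, with 70 above 0 and a median of 0.06. The smallest adjusted p among them was 0.664, which does not show that the groups were alike.

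**Figure D4:**
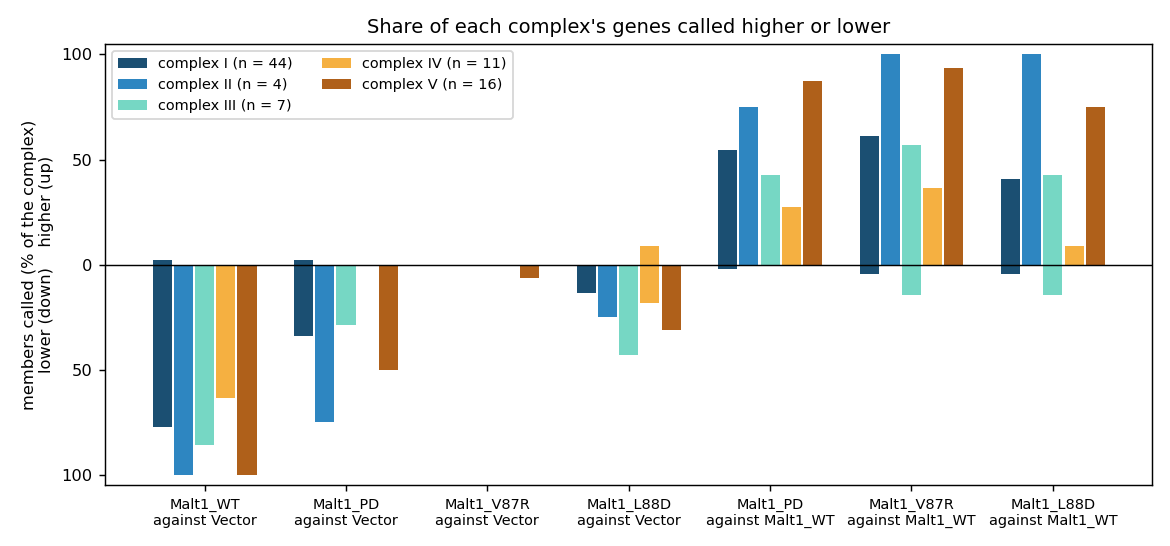
Share of each complex's genes called higher (up) or lower (down) by edgeR in 7 comparisons. Against Vector, bars point down most in Malt1_WT, where complexes II and V reach 4 of 4 and 16 of 16 genes; against Malt1_WT, most bars point up, and complexes I and III also have genes called lower.

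Across the 5 group means, Malt1_WT was lowest for 70 of the 82 genes and Vector highest for 62, and both held for 59. In 31 genes every Malt1_WT library was below every library of the other 4 groups. Against Vector alone, 64 of the 82 genes and 30.2% of all genes tested had every Malt1_WT library lower. The orders of the group means, the 31 and the call patterns below were not counted over all genes. Malt1_L88D was below Malt1_V87R in 70 genes, and Malt1_PD below Malt1_L88D in 40. By calls against Vector, 34 genes were lower in Malt1_WT alone, 16 in Malt1_WT and Malt1_PD, 10 in these and Malt1_L88D, 6 in Malt1_WT and Malt1_L88D and 1 in all 4 constructs. A call in 1 construct and none in another is not a test of their difference. Many of these genes are short. Among 3097 genes tested with under 2000 exon bases, a bound chosen while looking at the data, the median log2 fold change in Malt1_WT was -0.10, and 23.4% were called lower, against 27.7% of all genes tested. Of the 52 members that short, 39 were lower, with a median of -0.30.

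The genes around the chain were read from lists of known function, and every count in Malt1_WT stands beside the 27.7% of all genes tested that were lower and the 27.2% that were higher. Of 8 electron carriers and subunits outside the naming pattern, 4 fell and 2 rose in Malt1_WT, the latter near the share of all genes. Etfdh, which hands electrons from fat and amino acid oxidation to quinone, went from 33.2 ± 0.838 to 25.8 ± 0.498 CPM, and Cyc1, cytochrome c1, from 152 ± 3.61 to 127 ± 3.23 CPM (SD, n = 3). Cycs, cytochrome c, rose by 0.12 on the log2 scale (edgeR adjusted p = 0.0172). Of 43 assembly factors with other names, 16 fell and 3 rose, among them the complex III factor Uqcc2 (108 ± 7.83 to 65.1 ± 4.96 CPM, log2 -0.74) and the complex I factors Tmem126b and Acad9 (-0.77 and -0.41).

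The 13 subunits encoded in the mitochondrion included 4 that fell and 2 that rose in Malt1_WT. Among all genes tested, 27.7% were lower and 27.2% higher. However, mt-Nd3, mt-Nd4l, mt-Atp8, mt-Co2, mt-Co3 and mt-Atp6 had Vector means of only 0.538 to 19.1 CPM. Their SEs in Malt1_WT were 0.205 to 0.416, and none was called in any construct against Vector. The other rows were at 904 CPM or more in Vector and held every call, with mt-Cytb alone not called in Malt1_WT. Counts out of 13 therefore cannot be set against the shares of all genes. The catalytic oxidase subunit mt-Co1 rose by 0.35 ± 0.0316 (edgeR adjusted p = 1.48e-10) and mt-Nd4 by 0.20, while mt-Nd6 and mt-Nd1 of complex I fell by 0.35 and 0.27. In Malt1_PD 3 fell and 2 rose, in Malt1_L88D 2 fell and 1 rose, and in Malt1_V87R none fell and 2 rose. Of all genes, 22% were lower and 22.8% higher in Malt1_PD, 8.43% and 8.96% in Malt1_L88D, and 4.7% and 7.01% in Malt1_V87R. For the same reason, the counts cannot be set against these shares either.

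Of 17 regulators of mitochondrial biogenesis, 5 fell and 4 rose in Malt1_WT, both near the 27.7% and 27.2% of all genes. Pprc1, a coactivator of these genes, went from 106 ± 1.81 to 78.9 ± 2.04 CPM, and Yy1 from 159 ± 4.22 to 123 ± 5.27 CPM. Nrf1 and the GABP genes Gabpa and Gabpb1 changed by -0.01, 0.10 and -0.05 on the log2 scale. None of them passed the test (edgeR adjusted p = 0.901, 0.39 and 0.535). Esrra, which encodes the receptor ERR alpha, rose from 18.4 ± 0.308 to 28.6 ± 1.16 CPM in Malt1_WT and to 32.0 ± 0.704 CPM in Malt1_PD (log2 0.64 and 0.80, edgeR adjusted p = 4.18e-09 and 3.24e-11).

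The lists of other mitochondrial genes are given beside the same shares of all genes, 27.7% lower and 27.2% higher. In the citrate cycle 9 of 19 fell and 1 rose, with Suclg1 and Idh2 down by 0.48 and 0.55 and Dld up by 0.21. In protein import and the outer membrane 16 of 25 fell and 2 rose, with the porin Vdac2 and the prohibitin Phb2 down by 0.33 and 0.38 and the chaperone Hspa9 up by 0.26. Of 8 genes of ATP export and use of the proton gradient, 6 fell and none rose, with a median of -0.43. Among them were the ADP/ATP carrier Slc25a4 (304 ± 14.2 to 221 ± 4.39 CPM), which had the smallest adjusted p, and Atpif1, the inhibitor of ATP synthase (-0.62). The marker lists moved too: 7 of 11 macrophage and dendritic markers tested rose and 1 fell, 2 of 7 fibroblast markers rose and 4 fell, 2 of 3 muscle markers and the 1 T cell marker tested rose, and 3 of 5 markers of the line fell. Their part in the results was not tested.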

How the data were processed

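The data were 15 RNA libraries of the E0771 line, 3 in each of 5 groups. Per the labels' protocols, total RNA was made into directional libraries and read as paired ends of 150 bases. The authors deposited raw counts per gene symbol. Per the submitters' processing notes, the tools were featureCounts 1.6.3, STAR 2.7.3a and Trim Galore 0.6.0, on GRCm38.p6. Which annotation was counted, whether strand was used and how reads of several genes were treated is not given in the sources used here. Columns were assigned by name. The 3 columns given to Malt1_PD are named for a cysteine substitution, and no other construct lacked columns of its own.

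CPM values used library totals scaled by TMM factors (0.973 to 1.02). The test was edgeR 4.0.16 (R 4.3.3), run on the 14571 genes that filterByExpr kept. Its quasi-likelihood model was fitted robustly to the 5 groups at once, and 8 two-sided contrasts were each adjusted by Benjamini-Hochberg over genes, with calls at 0.05. The common biological coefficient of variation was 4.61%. The SE of a fold change is its size divided by the square root of its F value. In simulated counts the test recovered 58%, 74%, 88% and 100% of genes changed by 1.25, 1.5, 2 and 4-fold in Malt1_WT against Vector, over 14225 genes. Positions came from GENCODE M21.

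The genes and lists were chosen with earlier results of these data known. Named genes were the called genes with the largest changes and no overlap between groups, at 5 CPM or more, the smallest adjusted p per complex, the isoforms, complex II and complex I core subunits, and leading genes of each list. The values of 1 gene under this rule are not reported here. Alternatives were other scalings, DESeq2 1.42.0, no filter on low counts, a replicate block, only the 6 libraries compared, and leaving out each library. Proteins were not used here.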

Additional observations from a re-analysis of the deposited data

How the results depend on the processing

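The 67 genes lower in Malt1_WT against Vector were 53 to 66 in number when any 1 library was left out, and within 1.5 times of 67 under every alternative run. Here and below, counts under the alternatives are given without the shares of all genes under the same settings. With 1 library left out, the other counts ran as follows. Higher in Malt1_WT than in Vector was 1 to 1. In Malt1_PD against Vector, higher was 1 to 3 and lower 14 to 37; in Malt1_V87R, lower was 0 to 7; in Malt1_L88D, higher was 0 to 1 and lower 4 to 30. Against Malt1_WT, higher was 17 to 57 in Malt1_PD, 41 to 52 in Malt1_V87R and 26 to 35 in Malt1_L88D. Without the low-count filter, 2 genes were higher in Malt1_WT, 2 higher in Malt1_PD and 3 lower in Malt1_V87R. Malt1_V87R had 2 lower with RLE and 2 with upper-quartile scaling, and Malt1_PD had 28 higher than Malt1_WT with the latter. DESeq2 called 0 higher in Malt1_L88D. Fitting only the 6 libraries compared gave 2 higher in Malt1_WT, 17 lower in Malt1_PD, 3 lower in Malt1_V87R and 28 higher in Malt1_PD than in Malt1_WT. Leaving out replicate 2 of Vector and Malt1_PD together, chosen after seeing the data, gave 3 higher in Malt1_PD. The replicate block gave 2 higher in Malt1_WT, 2 higher in Malt1_PD, 5 lower in Malt1_V87R and 27 lower in Malt1_L88D. The numbers were not taken as pairs, since deviations of same-numbered libraries correlated at 0.13, 0.10 and -0.01 in Malt1_WT against Vector and at 0.19, 0.23 and 0.0035 in Malt1_PD against Vector, where numbers 1 and 2 correlated best with their own number, and not every library correlated best with its own number. Cox7a2l in Malt1_WT changed sign to 0.0021 with RLE and 0.0016 with DESeq2, and ran from -0.0315 to 0.0352 with 1 library left out; the cause was not tested. Of 696 alternative values for 55 fold changes of named genes, 303 of those without 1 library and 358 of the others kept their direction and side of the threshold. At 3 libraries a group, 58% of simulated 1.25-fold changes were recovered in Malt1_WT against Vector and 44% in Malt1_PD against Malt1_WT. The simulation called 166 genes in Malt1_WT against Vector, where the data had 3958 higher and 4039 lower. The raw p needed for a call therefore differed, and these rates are not those of the members. A missed test does not by itself show that a member was unchanged.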

Other observations

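Some subunits that complexes need to work were listed at or near 0 in the deposited counts. Cox5b of complex IV and Ndufs3, a core subunit of complex I, had a count of 0 in all 15 libraries, and the means were 0.0175 CPM for Uqcrc1, a core protein of complex III, and 0.00664 CPM for Atp5a1, the alpha subunit of the ATP synthase head. Partner subunits in the same complexes were plentiful, with Atp5b at 1460 and Uqcrc2 at 84.3 CPM in Vector. Some neighbours of Ndufs3 and Atp5a1 were also near 0 (Kbtbd4 at 0, Celf1 at 0.0255, Haus1 at 0.00311 and Epg5 at 0 CPM). Mtch2, also near Ndufs3, was at 122 CPM, and of the neighbours of the other subunits Actr1b beside Cox5b was at 87.8 CPM and Col7a1 beside Uqcrc1 at 65.4 CPM. These rows say nothing of the expression of the subunits, and the cause was not tested.

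Ndufb3, a complex I subunit, was the member nearest the level required, at 1.03 CPM with 8 to 33 counts per library, and Cox7a1 was the nearest below it. Ndufb1-ps, left out for its symbol, was at 28.3 CPM, and the annotation lists it as a non-coding RNA from a bidirectional promoter. Atp5o is the symbol of 2 annotated gene IDs, and its row may hold the reads of either.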
